A study of Mus musculus with 2 samples.

Results

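The replication-dependent histone genes are the protein-coding genes whose GENCODE mouse symbol (release M21) begins with Hist1h, Hist2h, Hist3h or Hist4h. The tables hold 64 of them among 43346 mouse genes, made up of 6 linker histone H1 genes, 18 H2A, 15 H2B, 12 H3 and 13 H4 genes. By cluster they are 52 Hist1 genes on chromosome 13, 9 Hist2 genes on chromosome 3, 2 Hist3 genes on chromosome 11 and 1 Hist4 gene on chromosome 6. A further 3 protein-coding genes have matching symbols but no row (Hist1h2bm, Hist1h2bh and Hist2h2bb) and were not analysed here. Total RNA was sequenced from the lungs of newborn B6NCrl mice (postnatal day 0), with 1 library from pup 1 (replicate 1) and 1 from pup 3 (replicate 2). Each library came from the 2 lungs of a single pup, and the labels give both pups pregnancy 1 and 1 donor identifier. No genetic change, treatment or second age is labelled, and sex was not recorded. With 1 group there is no comparison between conditions. Levels are given per pup in TPM, a unit that divides by transcript length and brings each library to the same total, or as mean ± SD (n = 2), and the pups are compared with each other without a p-value.

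Histones package DNA into nucleosomes. Pairs of H2A, H2B, H3 and H4 form the core around which the DNA winds, and H1 binds the linker between cores. The replication-dependent genes supply these proteins while DNA is copied. Their mRNAs typically have no introns and end in a conserved stem-loop in place of a poly(A) tail. The stem-loop is bound by SLBP and is needed for 3′ end formation, translation and decay of these mRNAs when replication stops. Other histone genes, called replication-independent, are typically active through the whole cell cycle and in cells that have stopped dividing. Their mRNAs usually carry poly(A) tails. Some replication-dependent genes are also known to give polyadenylated transcripts in differentiated cells.

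The stem-loops are shown because they define these mRNAs. A script searched each gene's GENCODE M21 transcripts, on the transcribed strand, for a 6-base arm beginning GG, the loop TTTC and the exact reverse complement of the arm. This form was found in 33 of the 64 histone genes (51.6%), against 8 of 21887 other protein-coding genes (0.0366%). With any base at the fourth loop position, a change made after the data were seen, it was found in 42 histone genes (65.6%) and 30 of the other genes (0.137%). The 42 genes held 6 different 16-base stem-loops. For each form the gene with the highest TPM is given. Coordinates are on GRCm38 (mm10), the letters are DNA, and capitals mark the 2 arms and the loop.
Hist1h2ap, H2A, chr13:21833026-21833049, minus strand: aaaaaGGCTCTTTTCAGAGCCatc
Hist1h4d, H4, chr13:23581945-23581970, plus strand: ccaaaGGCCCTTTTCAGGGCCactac
Hist1h3e, H3, chr13:23561898-23561923, minus strand: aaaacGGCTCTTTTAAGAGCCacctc
Hist2h4, H4, chr3:96262934-96262959, minus strand: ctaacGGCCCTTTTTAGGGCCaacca
Hist1h4b, H4, chr13:23757361-23757386, plus strand: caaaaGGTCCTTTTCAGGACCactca
Hist2h2ac, H2A, chr3:96220413-96220438, minus strand: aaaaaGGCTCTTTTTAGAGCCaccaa
The most frequent form, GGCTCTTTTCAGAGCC, stood in 24 genes of H1, H2A, H2B and H3. The others stood in fewer genes, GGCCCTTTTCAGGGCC in 7, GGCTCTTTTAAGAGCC in 6, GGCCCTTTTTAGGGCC and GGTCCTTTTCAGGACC in 2 each and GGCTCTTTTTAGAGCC in 1. The 11 genes with an arm GGCCCT or GGTCCT are all H4 genes. In 14 of the 22 genes without a match, the annotated model ended within 2 bases of the stop codon, so the end of the mRNA was not in the sequence searched.

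As a check of the tissue, all 9 lung markers reached TPM 1 in both pups and summed to 111014 TPM in pup 1 and 102964 TPM in pup 3. Pup 1 had 42189536 expected counts and pup 3 had 37026165. The 64 histone genes took 15994 of these in pup 1 and 13994 in pup 3, or 0.0379% and 0.0378%. Their TPM summed to 959 in pup 1 and 972 in pup 3 (965 ± 9.74).

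Replication-dependent histone transcripts were measured at a modest level and were unevenly spread. Whether cDNA synthesis needed a poly(A) tail is not stated, and its part in this level and in the class sums below was not tested. A level of TPM 1 or more in both pups was reached by 33 of the 64 genes (51.6%), against 60.3% of the 21474 protein-coding genes in the tables. A further 24 were under TPM 1 in both pups and 7 passed in 1 pup. The median over all 64 genes was 1.11 TPM in pup 1 and 1.33 TPM in pup 3. The 3 highest genes, Hist1h2ap, Hist2h2aa2 and Hist1h4d, held 63.6% of the summed TPM in pup 1 and 62.8% in pup 3. The 10 highest held 90.2% in pup 1 and 89.4% in pup 3.

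**Figure D1:**
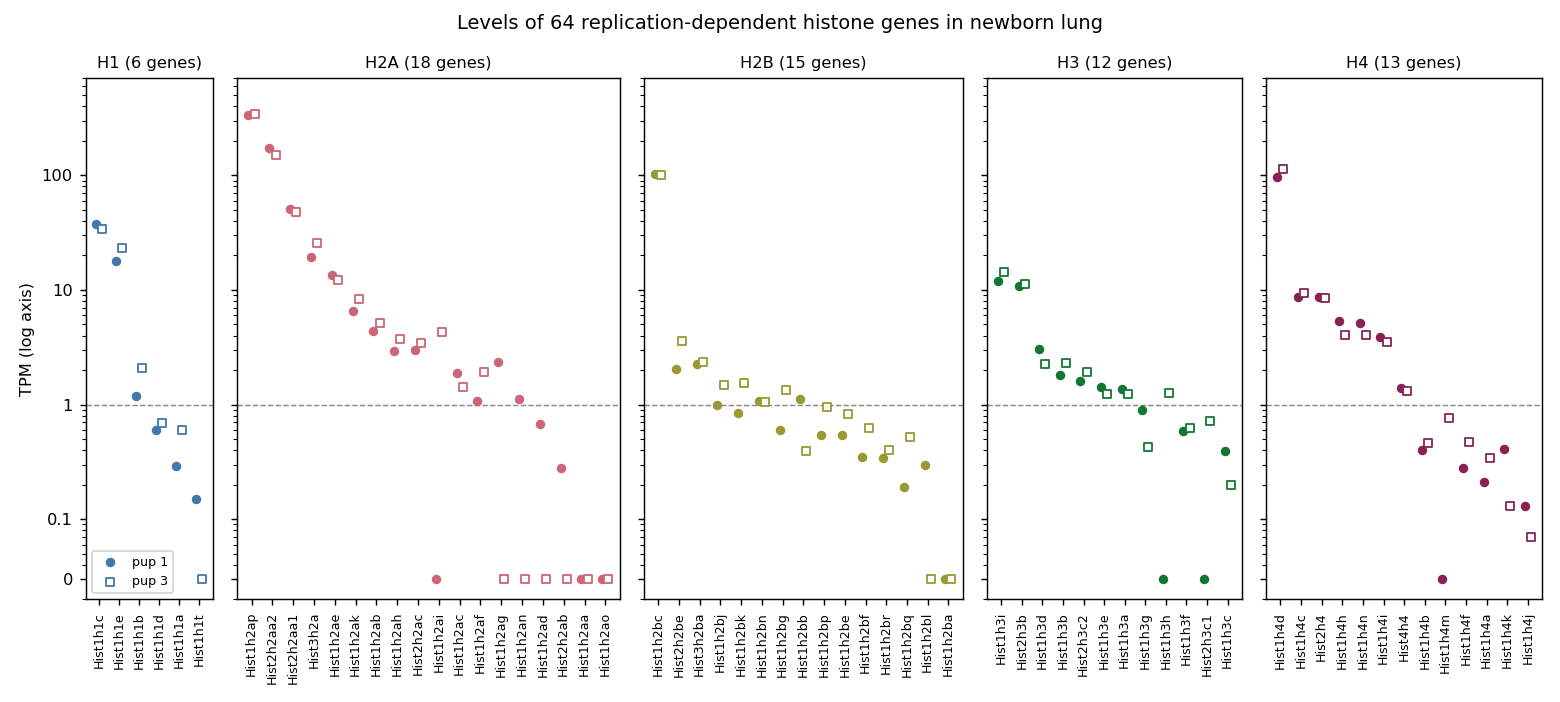
TPM of each of the 64 histone genes in pup 1 (filled circles) and pup 3 (open squares), on a log axis, in panels by class and ordered by mean. Values of 0 are drawn at the foot of the axis and the dashed line marks TPM 1. In each class 1 to 3 genes stand above the rest, led by Hist1h2ap (338 TPM in pup 1 and 346 TPM in pup 3).

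By class, H2A transcripts led. The 18 H2A genes summed to 620.4 TPM in pup 1 and 609.7 TPM in pup 3, which was 64.7% and 62.7% of the whole set. The 13 H4 genes summed to 132 TPM in pup 1 and 148 TPM in pup 3. The 15 H2B genes summed to 115 TPM in pup 1 and 117 TPM in pup 3. The 6 H1 genes summed to 57.7 TPM in pup 1 and 60.6 TPM in pup 3, and the 12 H3 genes to 34.0 TPM in pup 1 and 37.8 TPM in pup 3. The order H2A, H4, H2B, H1, H3 was the same in both pups, and no 2 neighbours in it overlapped between pups. The H4 and H2B sums came closest, at 139.8 ± 11.2 and 116 ± 1.32 TPM. In CPM, which scales counts to the library total and does not divide by length, the order became H2A (214), H2B (59.2), H1 (50.8), H4 (42.9) and H3 (11.7).

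The H2A class was led by Hist1h2ap, an H2A gene at chromosome 13, 21833026 to 21833507 on the minus strand, all of it 1 exon. It had 338 TPM in pup 1 and 346 TPM in pup 3 (342 ± 5.42), on 4180.5 and 3638 expected counts. It ranked 366 among the 21474 protein-coding genes by mean TPM. Next came Hist2h2aa2 (chromosome 3, 96239749 to 96240276, minus strand) with 174 TPM in pup 1 and 149.7 TPM in pup 3. Its copy Hist2h2aa1 (chromosome 3, 96245497 to 96246082, plus strand) had 50.8 TPM in pup 1 and 47.9 TPM in pup 3. Both encode the same H2A protein. The levels of these 3 genes did not overlap one another in either pup, but sequence limits what this shows. Every read-length stretch of Hist2h2aa1 and Hist2h2aa2 was also found in another gene. Their separate levels therefore depend on how shared reads were split. In Hist1h2ap, 7.83% of such stretches were found in no other gene. Hist3h2a, the H2A gene of the small Hist3 cluster, followed at 19.5 TPM in pup 1 and 25.7 TPM in pup 3. Its exon overlaps the gene Trim17 on the same strand, and reads of the shared stretch could belong to either. The other H2A genes ranged from 0 to 12.9 TPM on average, and 7 of the remaining 14 reached TPM 1 in both pups.

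The second core partner, H2B, rested on 1 gene. Hist1h2bc (chromosome 13, 23684199 to 23692908, plus strand) had 104 TPM in pup 1 and 102 TPM in pup 3, or 90.2% and 87.1% of the H2B sum. Hist2h2be had 2.05 TPM in pup 1 and 3.57 TPM in pup 3, on 167 and 247 counts. Hist3h2ba had 2.25 TPM in pup 1 and 2.33 TPM in pup 3. All other H2B genes averaged 1.24 TPM or less. Hist1h2bc was counted on a model of 736 bases, while the M21 model has 1156 bases in 2 exons.

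Histone H3 transcripts from these clusters were low. Hist1h3i had 11.9 TPM in pup 1 and 14.2 TPM in pup 3, Hist2h3b had 10.9 TPM in pup 1 and 11.3 TPM in pup 3, and Hist1h3d had 3.07 TPM in pup 1 and 2.28 TPM in pup 3. Hist1h3i was the highest of them by TPM in both pups, but in CPM it averaged 3.06 against 3.26 for Hist2h3b. Of its read-length stretches, 31.4% were found in no other gene, against 0% for Hist2h3b. Their order therefore depends on the unit and on how shared reads were split. The 12 H3 genes encode 2 proteins. The 4 genes of the first, led by Hist1h3i, summed to 14.1 TPM in pup 1 and 17.1 TPM in pup 3, and the 8 genes of the second, led by Hist2h3b, to 19.8 TPM in pup 1 and 20.6 TPM in pup 3.

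All 13 H4 genes encode the same protein of 103 residues, and 1 gene held most of their summed TPM. Hist1h4d (chromosome 13, 23581598 to 23582735, plus strand) had 97.3 TPM in pup 1 and 115 TPM in pup 3, or 73.8% and 77.5% of the H4 sum. In counts its lead was smaller, at 923 of 1771 in pup 1 and 925 of 1621 in pup 3. By TPM, Hist1h4c followed with 8.74 in pup 1 and 9.44 in pup 3, and Hist2h4 with 8.60 in pup 1 and 8.54 in pup 3. In CPM the order of these 2 was reversed, with Hist2h4 at 9.88 and Hist1h4c at 2.03 on average. Hist4h4, the single gene of the Hist4 cluster, had 1.40 TPM in pup 1 and 1.32 TPM in pup 3. The Hist1h4d level was counted on a model of 393 bases, while the M21 model has 1138 bases. Its TPM and its share of the H4 sum would be lower on the longer model if the counts stayed the same.

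Among the H1 genes, Hist1h1c (chromosome 13, 23738808 to 23740367, plus strand) had 37.7 TPM in pup 1 and 33.9 TPM in pup 3. Hist1h1e had 17.8 TPM in pup 1 and 23.3 TPM in pup 3, and Hist1h1b had 1.20 TPM in pup 1 and 2.09 TPM in pup 3. Hist1h1c was the higher of the first pair in both pups. Hist1h1d and Hist1h1a were under TPM 1 in both. In the M21 models, the exons of Hist1h1e overlap those of Hist1h2be on the same strand. Hist1h1e was counted on a model of 748 bases, while its M21 model has 1930 bases. Whether the counted model reaches the overlap was not checked.

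**Figure D2:**
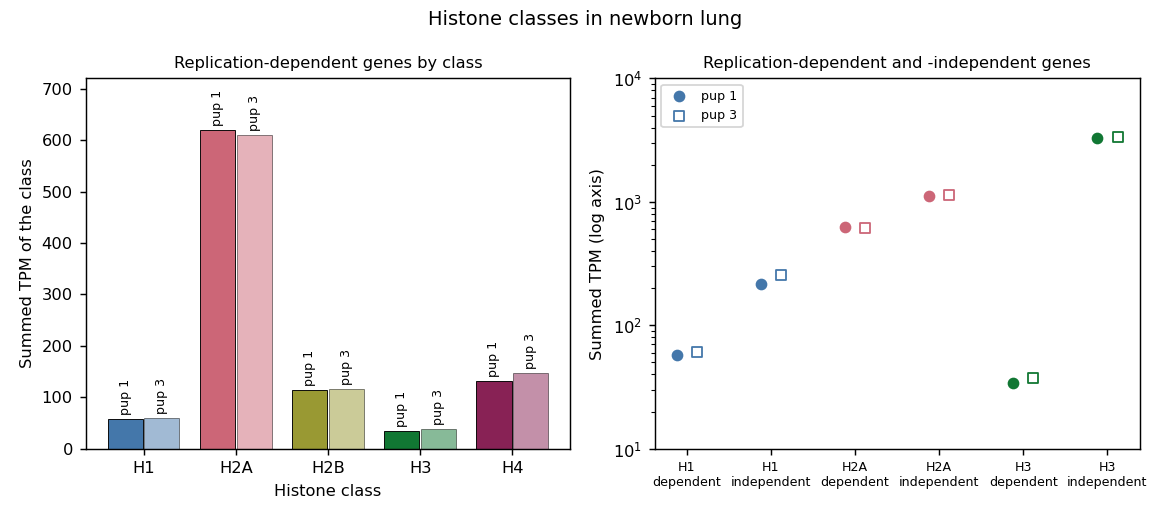
Left, summed TPM of each histone class, pup 1 (full colour) beside pup 3 (pale). Right, on a log axis, the replication-dependent genes of H1, H2A and H3 beside the replication-independent genes of the same histone (circles, pup 1; squares, pup 3). The H2A bars are the tallest at 620.4 and 609.7 TPM, and the widest gap on the right is in H3.

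Replication-independent histone genes stood well above the replication-dependent ones. The 17 on the list summed to 4626 TPM in pup 1 and 4768 TPM in pup 3, with 12 at TPM 1 or more in both pups. On the log2 scale, the summed TPM of the replication-dependent genes over that of the replication-independent ones was -2.27 in pup 1 and -2.29 in pup 3 (-2.28 ± 0.02). The list was led by H3f3a (1527 TPM in pup 1 and 1579 TPM in pup 3) and H3f3b (1476 TPM in pup 1 and 1439.8 TPM in pup 3), which encode the replacement H3 variant, and by H2afz (511 TPM in pup 1 and 547 TPM in pup 3), which encodes the variant H2A.Z. The gap differed by class. For H3, replication-dependent genes held 1.03% of the joint sum of both kinds in pup 1 and 1.12% in pup 3. For H1, set beside H1f0 and H1fx, they held 21.1% in pup 1 and 19.1% in pup 3. For H2A, set beside H2afz, H2afv, H2afx, H2afj, H2afy and H2afy2, they held 35.8% in pup 1 and 34.8% in pup 3. Counts of H3f3a, H3f3b and H3f3c were not whole numbers, so shared reads had been split among like sequences. The sources used here do not say whether cDNA synthesis needed a poly(A) tail, and its part in this gap was not tested.

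Nearly all of the listed factors that make and remove these mRNAs were present. SLBP mRNA (Slbp) stood at 73.6 TPM in pup 1 and 78.3 TPM in pup 3. Npat, which activates histone gene transcription, stood at 6.02 TPM in pup 1 and 7.03 TPM in pup 3. Of the 22 matched factors, 21 reached TPM 1 in both pups, against 60.3% of all protein-coding genes. The other, Zfp473, stood at 0.33 TPM in pup 1 and 0.27 TPM in pup 3. Snrpb, Snrpg and Snrpe, subunits of the Sm ring, were highest at 366 ± 17.3, 271 ± 12.8 and 263 ± 9.96 TPM. All 12 histone chaperones were detected, led by Atrx (119 ± 15.3 TPM), Nap1l1 (98.1 ± 4.45 TPM) and Nap1l4 (85.3 ± 1.53 TPM). All 29 genes of the S-phase and proliferation list were also detected. They summed to 389 TPM in pup 1 and 435 TPM in pup 3, led by Pcna, the replication clamp (65.6 TPM in pup 1 and 67.4 TPM in pup 3), and by the helicase subunits Mcm6 (33.7 ± 0.580 TPM) and Mcm7 (32.5 ± 0.778 TPM). Cells in S phase and the amount of histone RNA in each cannot be told apart in whole tissue.

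Germ cell histone genes served as members that lung should lack. Hist1h2aa and Hist1h2ba, an H2A and H2B pair used in testis, had 0 counts in both pups. A count of 0 allows a level of up to 3 counts, which is 0.0711 CPM in pup 1 and 0.0810 CPM in pup 3. Hist1h1t, the testis linker histone gene, had 3 counts in pup 1 against 0 in pup 3. The 6 germ cell markers summed to 0.15 TPM in pup 1 and 0.26 TPM in pup 3, and Prm1, Prm2 and Tnp1 had 0 counts in both. The third gene with 0 counts in both pups, Hist1h2ao, is not a germ cell gene.

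The genes lie in tight groups, and their RNA was not spread evenly along them. The Hist1 cluster held 684 TPM in pup 1 and 716 TPM in pup 3, or 71.4% and 73.6% of the set. Hist2 held 251 TPM in pup 1 and 227 TPM in pup 3, with 7 of its 9 genes detected in both pups. Of the other Hist2 genes, Hist2h2ac had 3.01 TPM in pup 1 and 3.42 TPM in pup 3, and Hist2h3c2 had 1.62 TPM in pup 1 and 1.94 TPM in pup 3. Hist2h3c1 was listed at 0 TPM in pup 1 and 0.72 TPM in pup 3, and Hist2h2ab at 0.28 TPM in pup 1 and 0 TPM in pup 3. Hist3 held 21.7 TPM in pup 1 and 28.0 TPM in pup 3. Within Hist1, 22 genes between 21715763 and 22043676 summed to 378 TPM in pup 1 and 394 TPM in pup 3, of which Hist1h2ap made up 89.4% and 87.7%. This sum and share depend on how reads that Hist1h2ap shares with H2A genes here and elsewhere were split. Another 28 genes between 23531050 and 23764406 summed to 306 TPM in pup 1 and 322 TPM in pup 3, with no gene above 35.6% of the sum in either pup.

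In 12 places an H2A and an H2B gene face away from each other, with 175 to 305 bases between their starts. The H2A gene was higher by mean TPM in 6 of these pairs, the H2B gene in 5, and both were at 0 in the germ cell pair. Partners could differ widely. Hist1h2ap (338 TPM in pup 1 and 346 TPM in pup 3) faces Hist1h2br, which had 0.34 TPM in pup 1 and 0.40 TPM in pup 3. Only 7.83% of the read-length stretches of Hist1h2ap were its own, so this contrast depends on how shared reads were split. Hist1h2bc (104 TPM in pup 1 and 102 TPM in pup 3) faces Hist1h2ac, which had 1.89 TPM in pup 1 and 1.42 TPM in pup 3. In the single pair of the Hist2 cluster, Hist2h2ac was the higher gene in pup 1 and Hist2h2be in pup 3. The higher partner also switched between the pups in several Hist1 pairs with low TPM. The split of 6 against 5 by mean TPM therefore does not hold in each pup.

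Promoters are shown for the highest gene of each class with a row in the RefSeq promoter table (GRCm38.p6), which matched 59 of the 64 genes. The H2B genes with higher TPM, Hist1h2bc and Hist2h2be, were not matched, so the H2B promoter shown is that of Hist3h2ba. The 250 bases before the start were searched on both strands for TATAA, a form of the TATA box, and CCAAT. Capitals mark the matches, which read TTATA or ATTGG where they lie on the other strand. The Hist1h2ap sequence stops at its more distant GENCODE start.
Hist1h1c, H1, chr13:23738557-23738806, plus strand: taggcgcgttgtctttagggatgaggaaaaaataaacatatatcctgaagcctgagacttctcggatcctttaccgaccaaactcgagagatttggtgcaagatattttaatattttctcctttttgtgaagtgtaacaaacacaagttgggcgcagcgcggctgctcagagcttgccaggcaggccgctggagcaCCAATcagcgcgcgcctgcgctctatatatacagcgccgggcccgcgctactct
Hist1h2ap, H2A, chr13:21833508-21833725, minus strand: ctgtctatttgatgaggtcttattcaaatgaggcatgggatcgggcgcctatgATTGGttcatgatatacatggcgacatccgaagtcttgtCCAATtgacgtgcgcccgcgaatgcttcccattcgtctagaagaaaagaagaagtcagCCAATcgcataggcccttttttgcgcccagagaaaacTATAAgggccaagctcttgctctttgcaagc
Hist3h2ba, H2B, chr11:58948661-58948910, plus strand: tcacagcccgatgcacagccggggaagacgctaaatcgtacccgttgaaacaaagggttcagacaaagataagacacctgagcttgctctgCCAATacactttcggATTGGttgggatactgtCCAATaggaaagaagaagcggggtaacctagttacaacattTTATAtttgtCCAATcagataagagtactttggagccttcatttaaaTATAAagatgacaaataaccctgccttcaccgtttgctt
Hist1h3i, H3, chr13:21783398-21783647, minus strand: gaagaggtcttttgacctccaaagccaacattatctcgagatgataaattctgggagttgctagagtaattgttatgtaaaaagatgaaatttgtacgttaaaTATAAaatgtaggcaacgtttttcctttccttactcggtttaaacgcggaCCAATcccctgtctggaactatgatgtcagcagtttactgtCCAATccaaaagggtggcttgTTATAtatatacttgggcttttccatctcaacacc
Hist1h4d, H4, chr13:23581318-23581567, plus strand: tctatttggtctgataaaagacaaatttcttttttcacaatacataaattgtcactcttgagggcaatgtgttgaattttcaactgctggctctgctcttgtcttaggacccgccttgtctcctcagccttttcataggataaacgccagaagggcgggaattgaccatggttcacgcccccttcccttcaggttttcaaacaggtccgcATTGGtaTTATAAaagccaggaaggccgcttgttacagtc
TATAA was found in 66.1% of the histone promoters, against 23.4% of 26966 other promoters. CCAAT was found in 81.4%, against 34.4%, and both in 54.2%, against 8.46%. CCAAT stood in the promoters of all 6 H1, 18 H2A and 13 H2B genes matched and 8 of 10 H3 genes, but 3 of 12 H4 genes. The windows of an H2A gene and an H2B gene that face apart overlap, so they are not separate counts. A match describes letters, and binding was not measured.

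Near-identical copies limit what can be said of single genes. Windows of 100 bases, the read length that the deposited effective lengths imply, were compared with the M21 transcripts of all other genes on both strands. The windows were taken from M21 models, which equal the counted ones in 44 of the 64 genes. For the others, some windows may lie outside the counted sequence. At least 1 window was shared with another gene in 58 of the 64 histone genes. Shared windows stayed within the class in all but Hist1h1e and Hist1h2be, so the summed counts of a class are firmer than those of single genes, although 43 genes also share windows with genes outside the set, such as H2afx and unnamed models. Only 30 of the 383 windows of Hist1h2ap (7.83%) and none of those of Hist2h2aa1, Hist2h2aa2, Hist2h3b and Hist2h3c1 were found in no other gene. The summed counts of Hist2h2aa1 and Hist2h2aa2, 3207 in pup 1 and 2404 in pup 3, do not depend on the split between them. Their summed TPM does, since the counted models differ in length. Both sums still depend on the split with other genes that share windows with the pair, among them H2afx and unnamed models. Hist2h2aa1 also overlaps an unnamed model on the same strand. Hist1h4d, Hist2h4, Hist2h2be, Hist1h1a, Hist1h1b and Hist1h1t shared no window.

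**Figure D3:**
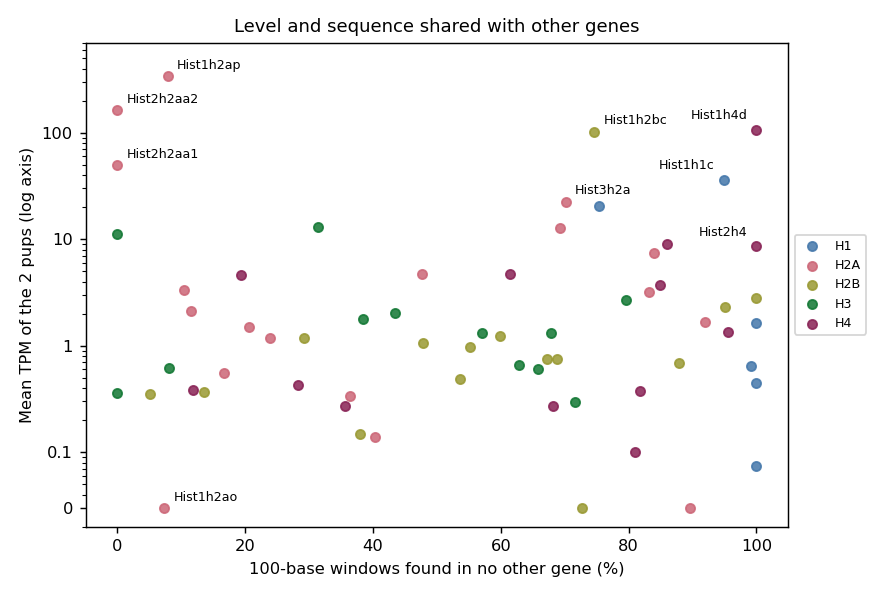
Mean TPM of each histone gene (log axis, 0 at the foot) against the percentage of its 100-base windows found in no other gene, coloured by class. Hist1h2ap (342 TPM) and Hist2h2aa2 (162 TPM) stand at 7.83% and 0%, while Hist1h4d (106 TPM) stands at 100%.

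Some genes were listed at 0 in a single pup. Hist1h2ag had 29.4 counts in pup 1 against 0 in pup 3, while Hist1h2ai had 0 counts in pup 1 against 34.5 in pup 3. Both encode the same H2A protein as Hist1h2ap, and 23.8% and 11.6% of their windows were their own. In all, 10 histone genes had 0 counts in a single pup. Of these, 9 had under 50% of windows of their own, as did 27 of all 64 histone genes, and the other was Hist1h1t, which shared no window. Whether the division of shared reads gave these zeros was not tested. Hist1h2ao, with 7.35% of windows its own, was listed at 0 in both pups, while the upper credibility bound deposited with its TPM was 3.89 in pup 1 and 5.74 in pup 3 (the level of that bound is not stated). The deposited bounds of Hist1h2ap ran from 319 to 341 TPM in pup 1 and from 323 to 348 TPM in pup 3. When members with one protein were summed, 17 of 27 proteins reached TPM 1 in both pups. The 9 genes for the H2A protein of Hist1h2ap summed to 362 TPM in pup 1 and 369 TPM in pup 3.

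Levels were also set beside the 3′ ends of the models. The 20 genes whose stem-loop lay within 60 bases of the end of the M21 model summed to 592 TPM in pup 1 and 570.5 TPM in pup 3. Of the 20, 10 were detected in both pups. Hist1h2ap alone made up 57.2% of the sum in pup 1 and 60.6% in pup 3. Hist2h2aa1 and Hist2h2aa2 together added 225 TPM in pup 1 and 198 TPM in pup 3, so the sum mainly describes these H2A genes. The 22 genes with a stem-loop and a longer stretch after it summed to 222 TPM in pup 1 and 246 TPM in pup 3. Hist1h4d made up 43.9% of that sum in pup 1 and 46.6% in pup 3. Of the 22, 14 were detected. Among the 22, Hist1h1c has 840 bases after the stem-loop, Hist2h4 has 1257 and Hist3h2a has 1643. In Hist1h2ap, 3 bases follow it. The limit of 60 bases was set after the data were seen. The counted model matched an M21 model in 44 of the 64 genes, and for the others these lengths describe the annotation only. Reads were not placed along the transcripts here, so use of the longer ends was not measured.

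Transcript models add little. Only Hist1h2be, Hist1h2bp, Hist1h2bq and Hist1h2br had more than 1 counted transcript, all with gene levels under TPM 1 in both pups. The deposited isoform percent of Hist1h2be-202 was 29.6 in pup 1 and 55.0 in pup 3, on 11.8 and 28.9 counts. For Hist1h2bp-202 it was 100 in pup 1 and 27.9 in pup 3, on 9.08 and 3.85 counts, and for Hist1h2bq-202 it was 100 in both.

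Pup 1 and pup 3 were compared gene by gene. By the size rule (at least 2-fold after TMM scaling, at least 50 counts over both libraries, and a 95% interval of the ratio that leaves out 1), 0 of 29 histone genes with enough counts differed, against 1.4% of 15790 genes over the whole table. The count depends on the minimum. With at least 10 counts, 6 of 50 histone genes differed (12%), against 3.09% of all genes, and with at least 1 count, 8 of 61 did (13.1%), against 2.84%. Of the 6, 5 had 0 counts in 1 pup, and all 6 had under 50% of windows of their own. Of all genes, 0.659% were called higher in pup 1 and 0.741% higher in pup 3. Each side is a single library, so replicates cannot check these ratios, and the intervals cover counting error only. The median log2 ratio of the 29, pup 1 over pup 3, was 0.015, beside 0.0054 over all genes. Among the 29, pup 1 had the higher value in 15 and pup 3 in 14. Intervals left out 1 in 8 of them (27.6%), against 46.2% of all genes. These intervals narrow as counts rise, and counts were not matched between the 2 sets, so the shares are not directly comparable.

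Among the 29, the lowest ratios were in Hist1h1b and Hist2h2be, which share no window with another gene. Hist1h1b had 25 counts in pup 1 and 37 in pup 3, with a ratio of 0.610 whose 95% interval (0.352 to 1.04) holds 1. Hist2h2be had 167 counts in pup 1 and 247 in pup 3. Its ratio was also 0.610 (0.498 to 0.746), so it was lower in pup 1 beyond counting error but short of 2-fold. Hist3h2a was also lower in pup 1, with a ratio of 0.805 (0.747 to 0.869), as was Hist1h1e at 0.811 (0.703 to 0.935). Hist1h1c was higher in pup 1, with a ratio of 1.18 (1.10 to 1.26). Hist2h2aa2 was listed higher in pup 1, with a ratio of 1.23 (1.16 to 1.31). All of its windows are shared, and the interval leaves out error in the split of shared reads. Its deposited TPM bounds overlapped between the pups, at 157 to 184 in pup 1 and 130 to 160 in pup 3. Summed counts gave 1.08 (1.01 to 1.15) for H1, 1.04 (1.01 to 1.08) for H2A, 1.00 (0.946 to 1.06) for H2B, 0.912 (0.7999 to 1.04) for H3 and 0.986 (0.921 to 1.06) for H4. None of the 12 replication-independent genes, 21 factors, 12 chaperones or 29 S-phase and proliferation genes with enough counts differed by the rule in either direction. The S-phase and proliferation genes split into 11 with a higher value in pup 1 and 18 in pup 3, with a median log2 ratio of -0.15.

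**Figure D4:**
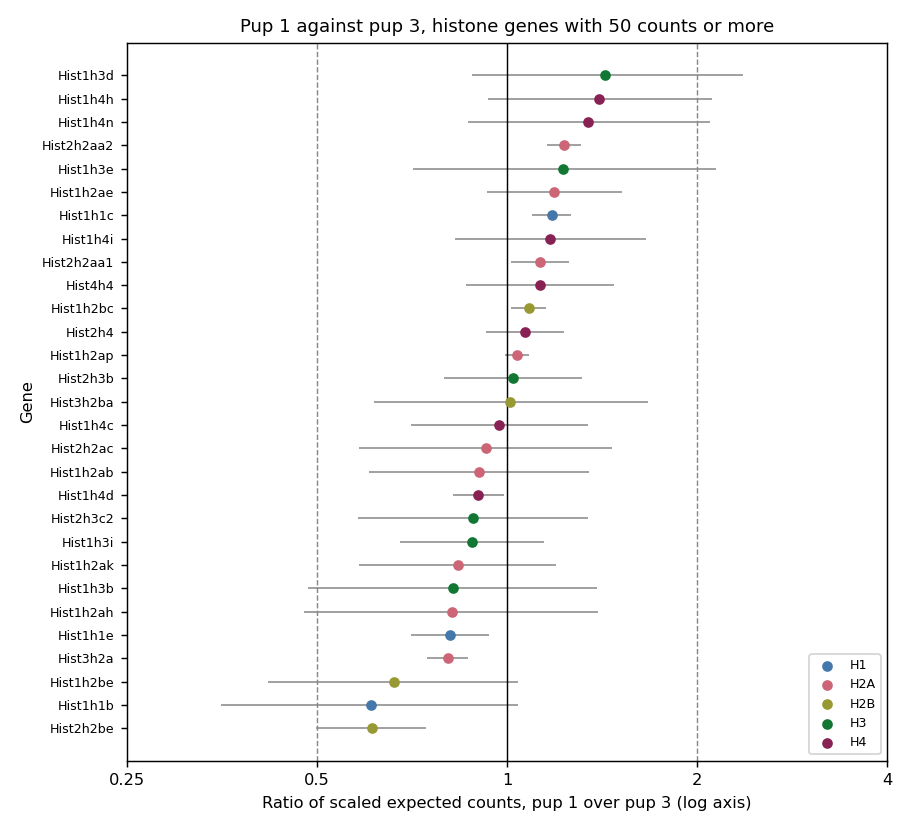
Ratio of scaled counts, pup 1 over pup 3, for the 29 histone genes with 50 counts or more (log axis). Points are coloured by class, bars are 95% counting intervals, and dashed lines mark 2-fold. Every point lies inside the dashed lines, and the lowest are Hist1h1b and Hist2h2be, both at 0.610.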

How the data were processed

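Total RNA-seq was measured in 2 libraries of 1 group, newborn mouse lung, with RNA over 200 nt and 10 ng input per the labels' protocols. The deposited tables hold expected counts (estimated counts that need not be whole, since shared reads were split), TPM, FPKM and isoform percent, per the file headers, with posterior mean values beside them. The README text deposited with the files names mm10 and annotation M4. The sources used here do not name the aligner, the counting program or the use of strand, so overlapping and antisense genes are uncertain.

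Names and coordinates came from GENCODE M21 by gene identifier without version. The members and lists were chosen with earlier results of these data known. Genes were named by a rule, namely the 3 highest of each class, all Hist2, Hist3 and Hist4 genes, germ cell histone genes, and the 3 highest of each other list with Slbp, Npat and Pcna. A few others were named after their values were seen (Hist1h1a, Hist1h1d, Hist1h2ac, Hist1h2ag, Hist1h2ai, Hist1h2ao, Hist1h2br, Zfp473). Of 99 listed genes, 1 (Ars2) had no match.

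Rounded expected counts of all mouse genes were scaled by TMM (edgeR 4.0.16, R 4.3.3), with a prior count of 0.5 in log2 ratios. Pup 1 had 1.11 times the effective size of pup 3. Intervals are exact conditional binomial (scipy 1.17.1). Alternatives were other scalings (DESeq2 1.42.0 size factors, total counts, spike-ins), count filters, prior counts, TPM with a pseudocount, posterior means, FPKM and CPM. With no molecular identifiers, reads may repeat molecules, so intervals and the limit at 0 cover counting error only. Protein sequences were compared through the annotated coding parts and are not printed.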

Additional observations from a re-analysis of the deposited data

Results flagged for a closer look

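Pseudogenes whose symbols match those of the histone genes lie outside the set described, and 3 of them had more than 3 counts, the limit for a count of 0. Hist1h2aj had 14.6 expected counts in pup 1 and 0 in pup 3. Hist1h2al had 6.05 in pup 1 and 6.76 in pup 3. Hist3h2bb-ps had 4.64 in pup 1 and 1.08 in pup 3, and shares sequence windows with Hist3h2ba. Expected counts of such copies depend on how shared reads were split, and whether these reads came from the functional genes was not tested.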

How the results depend on the processing

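Summed TPM of the histone genes was 965 ± 9.74 and became 951.5 with posterior mean TPM, 949.9 with members at TPM 1 or more alone, 727 in FPKM and 379 in CPM. By class, FPKM gave 44.5 for H1, 463 for H2A, 87.1 for H2B, 27.0 for H3 and 105 for H4, and CPM gave 50.8, 214, 59.2, 11.7 and 42.9 in the same order. Posterior mean TPM moved H2A to 604 and the filter moved H2B to 109.96 TPM. The log2 ratio to replication-independent genes was -3.53 in CPM and -2.31 with the filter. The share of the 3 highest genes was 62.5% with posterior means, 52.9% in CPM and 64.2% with the filter. The number detected was 20 at CPM 1 and 14 at TPM 5, and 17 proteins passed once genes for 1 protein were summed.

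Of 50 members with at least 10 counts, 6 (12%) differed between the pups (Hist1h2ai, Hist1h2ag, Hist1h3h, Hist1h2an, Hist2h3c1 and Hist1h2bq), and of 61 with at least 1 count, 8 (13.1%) did, against 3.09% and 2.84% of all genes. The median log2 ratio of the members compared, pup 1 over pup 3, was -0.079 and -0.040 at those minimums, -0.026 with total counts, 0.16 with spike-in counts, and -0.048 or -0.051 in TPM with a pseudocount of 1 or 0.1. Spike-ins rest on 317 and 316 counts.

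With each pup left out, values ranged from 36 to 37 genes detected, 959 to 972 TPM in all, 57.7 to 60.6 for H1, 609.7 to 620.4 for H2A, 115 to 117 for H2B, 34.0 to 37.8 for H3 and 132 to 148 for H4, -2.29 to -2.27 for the log2 ratio and 62.8% to 63.6% for the top share. A comparison of the pups has no value with a pup left out. Of 120 values for single genes, 41 moved by more than the SD of the pups, 36 of them in FPKM or CPM. No paired analysis was possible because there is 1 group and no test.

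The 2 pups of 1 pregnancy give n = 2, so each SD is itself poorly known. The comparison of the pups in the report rests on genes with at least 50 counts, apart from the counts given at lower minimums, and the summed counts of a class rest less on the split of shared reads than single genes do.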
